A study of Homo sapiens with 6 samples.

Results

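The citric acid cycle transcripts described here are CS, IDH3A, IDH3B, IDH3G, OGDH, SUCLG1, SUCLG2, FH and MDH2, which encode mitochondrial cycle enzymes outside complex II. They were taken by gene symbol, and all 9 were found among the 19846 genes of the deposited table. The series measured messenger RNA in HepG2, a human liver tumour cell line, grown on flat 6-well plates (2D, 3 libraries) or in an interwoven hollow fiber bioreactor with circulating medium (3D, 3 libraries). The plates held EMEM medium, whereas a blend of EMEM, DMEM and serum circulated in the bioreactor, so culture form and medium cannot be told apart. HepG2 is a single tumour-derived line, and both groups came from it with no treatment or genetic change named. The labels do not say whether the libraries of a group came from separate cultures, so the tests below measure the spread between these libraries, which may be technical.

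The citric acid cycle runs in the mitochondrial matrix. Citrate synthase (CS) joins acetyl-CoA to oxaloacetate, and the later steps release carbon dioxide and pass electrons to NADH and to complex II before malate dehydrogenase (MDH2) restores oxaloacetate. In liver cells the cycle also supplies citrate for lipid synthesis and malate or oxaloacetate for gluconeogenesis, and it takes up carbon from glutamate and pyruvate. NAD-dependent isocitrate dehydrogenase is an assembly of the catalytic subunit IDH3A with IDH3B and IDH3G. Succinyl-CoA ligase pairs the common subunit SUCLG1 with either SUCLG2, which gives the GTP-forming enzyme, or SUCLA2, which gives the ATP-forming enzyme.

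The 2D libraries held 16270361 to 17943513 counts and the 3D libraries 9530795 to 15897621, the fewest in 3D replicate 1. Each cycle transcript had at least 189 counts in every library. Genes of the hepatocyte lineage were abundant in both groups: the 8 markers listed (ALB, AFP, APOA1, APOB, TTR, TF, SERPINA1 and HNF4A) summed to between 39470 and 43910 CPM in 2D and between 30690 and 49280 CPM in 3D. Of these, APOA1 (2.61-fold) and TF (1.63-fold) rose and APOB fell (from 17760 to 6631 CPM, edgeR adjusted p = 0.000614), and the other 5 were not called. CPM are counts scaled to a common library total and between libraries with the TMM method. Among markers of other cell types, 1 of 6 fibroblast markers was tested and fell (PDGFRB, from 6.97 to 13.7 CPM in 2D to between 2.98 and 3.55 CPM in 3D). The 3 endothelial markers tested summed to between 2.00 and 4.79 CPM in 2D and between 2.46 and 5.49 CPM in 3D, with 0 called. The 2 blood and macrophage markers tested summed to between 7.95 and 11.2 CPM in 2D and between 23.9 and 44.5 CPM in 3D, and CD68 rose while CD14 was not called. Of 3 cholangiocyte markers tested 2 rose (KRT19 and EPCAM) and 1 fell (SOX9), with sums of 520.4 to 597.2 CPM in 2D and 631.7 to 676.6 CPM in 3D. The part of these markers in the results was not tested.

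RefSeq promoter windows (250 bases before the gene start that RefSeq gives, GRCh38.p14) were matched for 8 of the 9 genes, all but OGDH. The RefSeq start of IDH3A lies 17864 bases inside the gene span of the deposited table, which begins further upstream, and that of SUCLG1 765 bases inside. The other 6 starts lie at most 148 bases inside. The windows of the IDH3 subunits are shown because IDH3A was called lower and IDH3B and IDH3G higher in 3D as fitted. With transcript length and GC content corrected, only IDH3B of these was called (log2 0.42, and −0.27 for IDH3A and 0.13 for IDH3G). Capitals mark the GC box GGGCGG and the palindrome TGCGCA, taken as a partial site of the factor NRF1, each searched on both strands. The windows are chr15:78149112-78149361 (plus strand) for IDH3A, chr20:2664217-2664466 (minus strand) for IDH3B and chrX:153794376-153794625 (minus strand) for IDH3G.
IDH3A: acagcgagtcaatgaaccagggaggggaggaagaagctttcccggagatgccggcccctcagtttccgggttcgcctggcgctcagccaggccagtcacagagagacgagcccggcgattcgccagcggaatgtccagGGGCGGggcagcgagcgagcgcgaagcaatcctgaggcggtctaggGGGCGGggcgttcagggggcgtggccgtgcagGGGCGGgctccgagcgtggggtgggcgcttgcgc
IDH3B: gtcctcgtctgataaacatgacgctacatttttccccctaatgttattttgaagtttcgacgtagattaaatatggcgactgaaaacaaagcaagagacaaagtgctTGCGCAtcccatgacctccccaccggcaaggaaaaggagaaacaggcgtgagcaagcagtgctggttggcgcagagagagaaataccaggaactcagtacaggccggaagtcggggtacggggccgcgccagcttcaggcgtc
IDH3G: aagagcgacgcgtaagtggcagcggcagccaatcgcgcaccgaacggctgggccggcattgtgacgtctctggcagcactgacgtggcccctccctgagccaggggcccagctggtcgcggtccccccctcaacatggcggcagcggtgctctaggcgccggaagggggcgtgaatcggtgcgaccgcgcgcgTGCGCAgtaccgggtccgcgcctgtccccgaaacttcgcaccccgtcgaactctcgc

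IDH3A had 3 GC boxes and no TGCGCA, while IDH3B and IDH3G each had 1 TGCGCA and no GC box. In IDH3G the TGCGCA shares bases with a copy of GCGTG. Among the 9965 windows of tested genes, 66.9% held GGGCGG and 11.5% held TGCGCA on either strand. The full NRF1 site was in 0 of the 8 windows and in 1.97% of windows of tested genes. GCGTG, a core of hypoxia response elements, was in 5 of 8 (IDH3A, IDH3B, IDH3G, SUCLG1 and FH) and in 45.2% of those windows, and the related ACGTG was in 1 of 8 (IDH3G) and in 23.5%. ACCGGAAG, a site of GABPA, was in MDH2 alone of the 8 and in 3.54%. The core AAGGTCA of the receptor ESRRA was in 0 of 8 and in 2.38%. These matches describe letters in a window and show no binding. The GC content of the windows ran from 51.6% in IDH3B to 71.2% in SUCLG2, beside a median of 64.8% over tested genes.

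In 3D culture 5 of the 9 transcripts rose (FH, IDH3B, MDH2, CS and IDH3G), 1 fell (IDH3A) and 3 were not called (SUCLG1, SUCLG2 and OGDH) at an edgeR adjusted p under 0.05. Rises lay between 1.42-fold and 1.75-fold. The background was high: 36.6% of the 15314 genes tested were called, 19.0% higher and 17.6% lower in 3D. The median log2 fold change of the 9 was 0.51, and over all genes tested it was 0.02. Summed over the 9, the level was 682.7 ± 11.4 CPM in 2D and 944.8 ± 33.4 CPM in 3D (SD, n = 3 per group), 1.38-fold higher. CS alone made up between 38.0% and 42.0% of that sum in each library. Without CS the sum still ran from 408 to 431.5 CPM in 2D and from 551.5 to 588.8 CPM in 3D, and the groups did not overlap. As these are bulk samples of a single line scaled to a common total, more RNA of these genes per cell and a change in the rest of the RNA cannot be told apart.

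**Figure D1:**
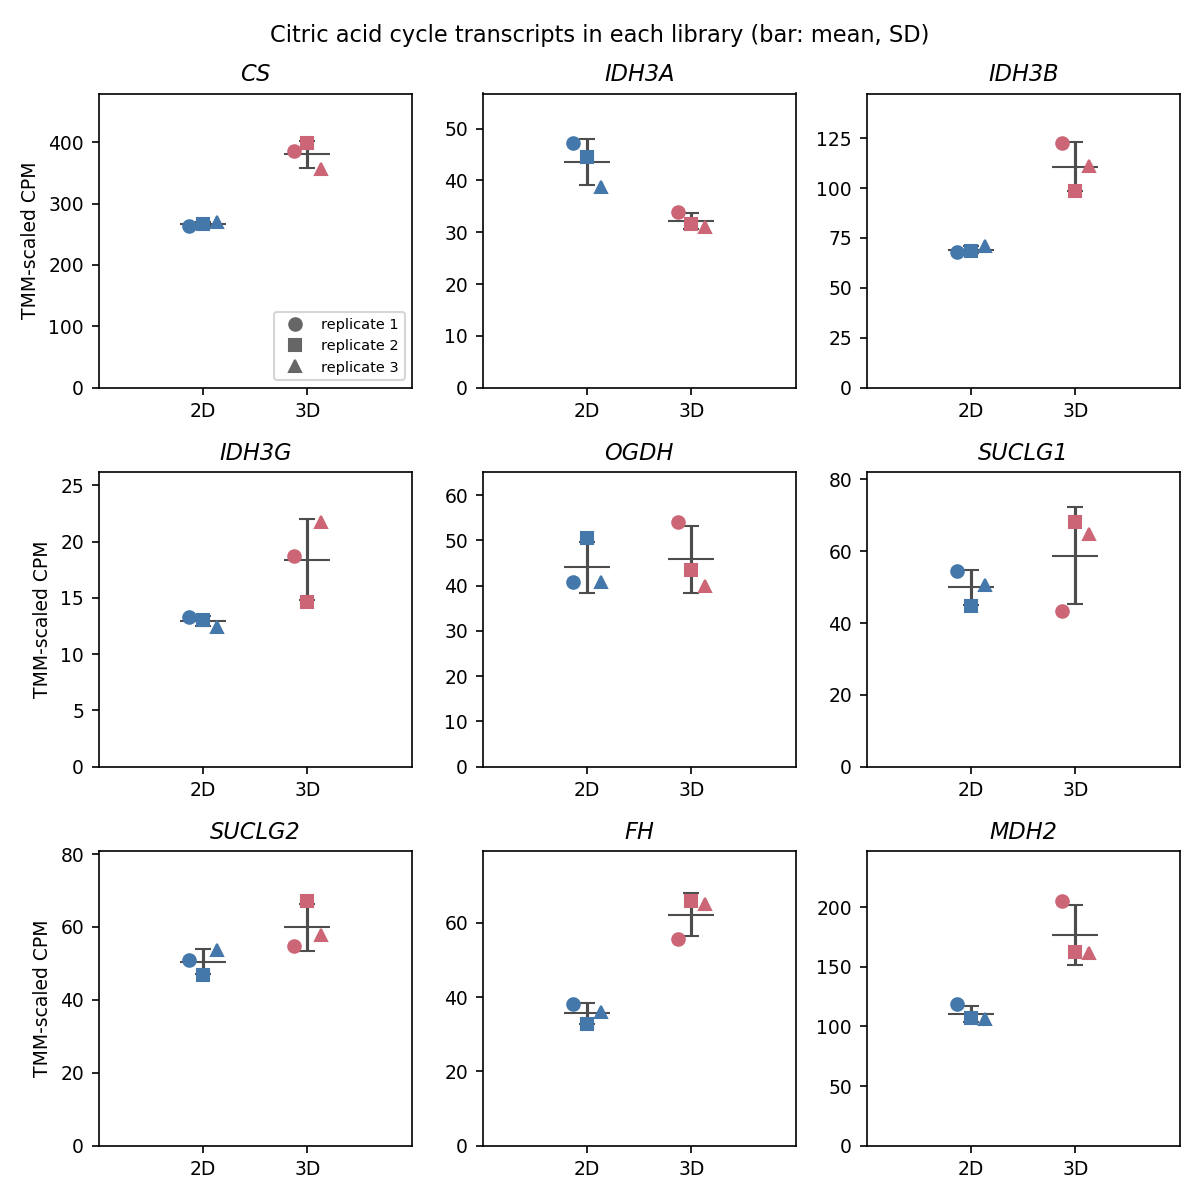
TMM-scaled CPM (y axes, each from 0) of the 9 cycle transcripts in the 2D and 3D libraries; points are libraries with the marker shape giving the replicate number, and bars give the mean and SD of 3 libraries. The groups separate upwards for CS, IDH3B, IDH3G, SUCLG2, FH and MDH2, downwards for IDH3A, and overlap for OGDH and SUCLG1.

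The enzymes that open and close the cycle rose. CS (chromosome 12, 56271699 to 56300393, hg38, minus strand; positions here are as the deposited table gives them, with the stop 1 base past the gene end of GENCODE release 29) stood at 264.2, 265.9 and 269.4 CPM in 2D replicates 1 to 3 and at 385.9, 399.4 and 355.8 CPM in 3D replicates 1 to 3. The lowest 3D library was well above the highest 2D library, and the 2D libraries were nearly equal. CS rose 1.43-fold (log2 0.51, SE 0.12, edgeR adjusted p = 0.00543). MDH2 (chromosome 7, 76048051 to 76067509, plus strand), which oxidises malate to oxaloacetate, stood at 118.5, 107 and 105.9 CPM in 2D and at 205.5, 162 and 161.9 CPM in 3D. Every 3D library was higher than every 2D library, with 3D replicate 1 the highest. MDH2 rose 1.60-fold (log2 0.68, SE 0.13, edgeR adjusted p = 0.00234).

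FH (chromosome 1, 241497603 to 241519762, minus strand), which hydrates fumarate to malate, had the largest rise of the 9. It stood at 38.2, 32.7 and 36.0 CPM in 2D and at 55.5, 66.0 and 65.0 CPM in 3D. The groups were far apart compared with their spread, although 3D replicate 1 was the lowest of its group. FH rose 1.75-fold (log2 0.81, SE 0.13, edgeR adjusted p = 0.00074). Its absolute log2 fold change exceeded that of 79.3% of the genes tested. The rises of CS, MDH2, FH and IDH3B were called in each of 17 alternative analyses.

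The subunits of NAD-dependent isocitrate dehydrogenase, which turns isocitrate into alpha-ketoglutarate, were called in different directions. IDH3A (chromosome 15, 78131498 to 78171950, plus strand), the catalytic subunit, stood at 47.3, 44.6 and 38.7 CPM in 2D and at 33.9, 31.7 and 31.0 CPM in 3D. All 3D libraries were below all 2D libraries, and 2D replicate 3 lay closest to the 3D group. IDH3A fell by 0.44 on the log2 scale (SE 0.13, edgeR adjusted p = 0.0216). The call was lost when 2D replicate 1 (edgeR adjusted p = 0.106), 2D replicate 2 (0.0672) or 3D replicate 3 (0.0552) was left out, with log2 differences of −0.38, −0.44 and −0.41, and in a fit corrected for transcript length and GC content (0.123). IDH3A shares 2608 exonic bases with ACSBG1 on the opposite strand, which had between 9.42 and 35.4 counts in any library.

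IDH3B (chromosome 20, 2658395 to 2664220, minus strand), a structural partner of IDH3A, stood at 67.9, 68.6 and 70.9 CPM in 2D and at 122.8, 98.3 and 110.9 CPM in 3D. The 3D libraries were all higher and more spread than the 2D libraries. IDH3B rose 1.60-fold (log2 0.68, SE 0.12, edgeR adjusted p = 0.00146). IDH3G (chromosome X, 153785766 to 153794524, minus strand), the subunit through which citrate and ADP activate the enzyme, stood at 13.3, 13.0 and 12.4 CPM in 2D and at 18.8, 14.7 and 21.8 CPM in 3D. The groups did not overlap, but 3D replicate 2 was close to the 2D libraries. IDH3G rose 1.42-fold (log2 0.51, SE 0.17, edgeR adjusted p = 0.0393). It was called in 6 of 17 alternatives: the adjusted p lay between 0.0644 and 0.15 without 2D replicate 1, 2 or 3 or without 3D replicate 1 or 3, and it was 0.0509 with the replicate block. IDH3G shares 278 exonic bases with SSR4 on the opposite strand, which had 469 to 1218 counts, and with strand handling unknown reads there cannot be assigned. SSR4 itself was not called, with 70.5 ± 4.47 CPM on plates and 64.8 ± 15.9 CPM in the bioreactor (edgeR adjusted p = 0.612).

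Within each library the ratio of IDH3A to IDH3B counts was 0.697, 0.65 and 0.545 in 2D and 0.276, 0.322 and 0.28 in 3D. This ratio needs no scaling between libraries, and its groups were well separated: it was lower by 1.10 on the log2 scale in 3D, 0.465-fold. The ratio of IDH3A to IDH3G counts was 3.55, 3.42 and 3.11 in 2D and 1.81, 2.16 and 1.42 in 3D, lower by 0.92 on the log2 scale. For both, the exact two-sided permutation test gave p = 0.1, the smallest that 3 against 3 libraries allow, and an adjusted p = 0.18 over the 9 ratios computed, so neither could pass 0.05. Leaving out any single library kept the log2 difference of IDH3A to IDH3B between −1.21 and −1.03. A count ratio does not remove a difference in transcript length, and the principal transcripts differ in length. In the edgeR fit corrected for length and GC content, the log2 fold change of IDH3A less that of IDH3B was −0.69 and less that of IDH3G −0.40, an alternative chosen after seeing the data and with no test. With lengths taken as the median over basic transcripts they were −1.10 and −0.83. The ratio of IDH3B to IDH3G did not separate the groups, at a log2 value of 2.42 ± 0.08 in 2D and 2.60 ± 0.22 in 3D (SD, n = 3, exact permutation p = 0.4). IDH2, the NADP-linked mitochondrial enzyme that acts on the same substrate, stood at 39.9, 30.1 and 53.2 CPM in 2D and at 135.7, 101.1 and 111.4 CPM in 3D. The count ratio of IDH3A to IDH2 thus went from between 0.728 and 1.48 in 2D to between 0.25 and 0.313 in 3D (log2 difference −1.96, exact permutation p = 0.1).

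**Figure D2:**
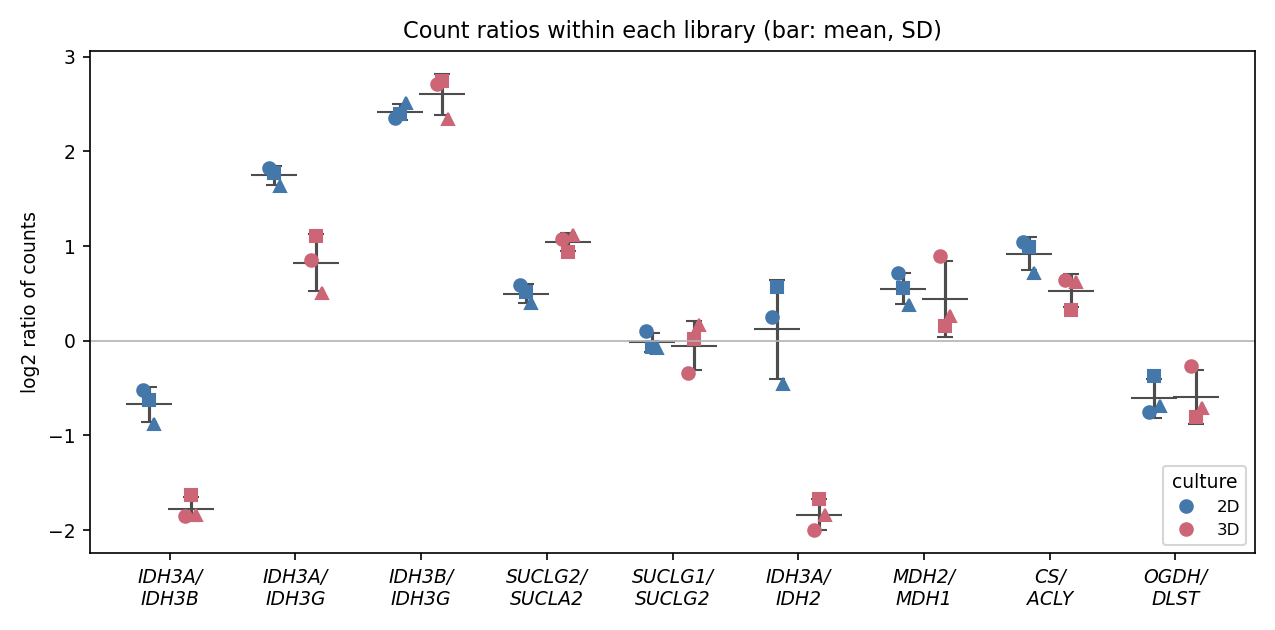
Log2 ratios of counts within each library (y axis) for 9 pairs of genes; points are libraries (circle, square and triangle for replicates 1, 2 and 3), colours the culture, and bars the mean and SD of 3 libraries. IDH3A against IDH3B, IDH3G and IDH2, SUCLG2 against SUCLA2, and CS against ACLY separate the cultures, and the other 4 pairs do not.

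OGDH (chromosome 7, 44606572 to 44709067, plus strand), the decarboxylating component of the alpha-ketoglutarate dehydrogenase complex, stood at 40.8, 50.5 and 40.9 CPM in 2D and at 54.2, 43.4 and 39.9 CPM in 3D. The groups overlapped fully, with the highest value in 3D replicate 1. The log2 difference was 0.05 (SE 0.15, edgeR adjusted p = 0.803), and its sign turned in several alternatives. DLST, the succinyl-transferring component of that complex, was also close in both groups, with 66.8 ± 1.77 CPM on plates and 69.0 ± 6.20 CPM in the bioreactor. The count ratio of OGDH to DLST gave a log2 difference of 0.01 (exact permutation p = 1).

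Succinyl-CoA ligase makes the nucleotide triphosphate of the cycle. SUCLG1 (chromosome 2, 84423523 to 84460046, minus strand), the common alpha subunit, stood at 54.5, 44.8 and 50.7 CPM in 2D and at 43.3, 68.3 and 64.8 CPM in 3D. In 3D the replicate with the fewest counts, replicate 1, was below all 2D libraries while the other two were above them. The log2 difference was 0.24 (SE 0.17, edgeR adjusted p = 0.294). Without 3D replicate 1 it was 0.40 (adjusted p = 0.0248), so the call for SUCLG1 depends on that library.

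SUCLG2 (chromosome 3, 67360460 to 67654615, minus strand), the GTP-specific beta subunit, stood at 51.0, 46.9 and 53.6 CPM in 2D and at 54.9, 67.3 and 57.7 CPM in 3D. The groups did not overlap, by a narrow margin, and the log2 difference of 0.25 (SE 0.13) did not pass the test (edgeR adjusted p = 0.144). SUCLA2, the ATP-specific beta subunit, stood at 33.9, 32.9 and 40.8 CPM in 2D and at 26.1, 35.2 and 26.6 CPM in 3D (log2 −0.29, edgeR adjusted p = 0.166). The count ratio of SUCLG2 to SUCLA2 was 1.50, 1.42 and 1.31 in 2D and 2.10, 1.91 and 2.17 in 3D. Its groups were separated, with a log2 difference of 0.55 (exact permutation p = 0.1, adjusted p = 0.18). SUCLG2 has a processed pseudogene, SUCLG2P2, counted at 3.88 to 5.32 CPM in 2D and 4.64 to 5.82 CPM in 3D, so reads shared with it are uncertain.

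Seen by group overlap alone, 6 of the 9 transcripts were higher in every 3D library than in any 2D library and 1 was lower. Over all genes tested, 25.6% were higher and 24.9% lower in that sense. The 5 genes outside the 9, with 10 CPM or more on average, had the profile over the 6 libraries most like the mean standardised profile of the 9, by Pearson correlation of log2 CPM over 9819 genes ranked: COPS7A (0.999), MAGED2 (0.997), PDLIM2 (0.996), NDUFB8 (0.996) and COMMD9 (0.995). These correlations rest on 6 libraries that share the difference between the 2 groups.

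Fold changes in these data ran with transcript length and GC content. Over the genes tested, the Spearman correlation across genes of the log2 fold change was −0.344 with transcript length and 0.296 with GC content. The principal transcripts of the 9 ran from 1475 bases (SUCLG1) to 4181 bases (OGDH), beside a median of 2770 bases over tested genes, and IDH3A, the transcript that fell, was among the longest with 4128 bases. With length and GC content corrected, CS (log2 0.51), FH (0.77), MDH2 (0.55) and IDH3B (0.42) were still called higher. SUCLG2 was then called (0.30, edgeR adjusted p = 0.0318), while IDH3G (0.13, 0.523) and IDH3A (−0.27, 0.123) were not. For IDH3A the correction depended on the transcript taken: with the median over its basic GENCODE transcripts, 566 bases, the log2 difference was −0.67 (edgeR adjusted p = 0.00208), and this alternative was chosen after seeing the data.

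**Figure D3:**
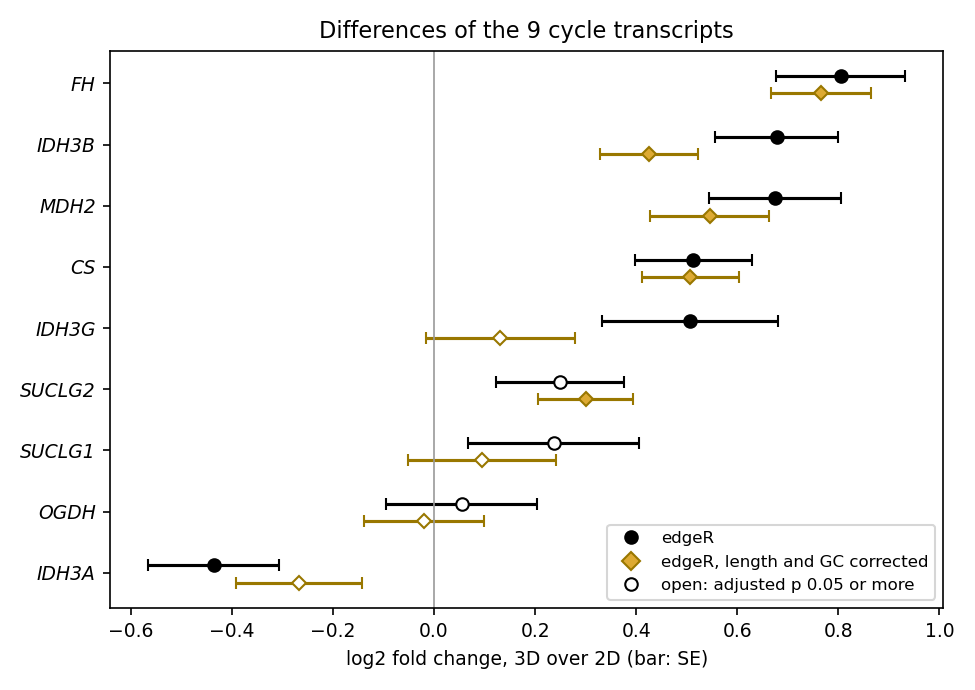
Log2 fold change of 3D over 2D (x axis) with its SE for the 9 cycle transcripts, from edgeR as fitted (circles) and with length and GC content corrected (diamonds); filled symbols have an adjusted p under 0.05. FH, IDH3B, MDH2 and CS are filled in both fits, and IDH3G and IDH3A only in the uncorrected fit.

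Levels of different genes were compared per kilobase of principal transcript. In 2D, CS was highest with 89.6 ± 0.89 CPM per kilobase, followed by MDH2 (50.0 ± 3.15), IDH3B (44.7 ± 1.04), SUCLG1 (33.9 ± 3.32), SUCLG2 (21.5 ± 1.45), FH (19.8 ± 1.54), OGDH (10.5 ± 1.34), IDH3A (10.5 ± 1.07) and IDH3G (8.71 ± 0.31; SD, n = 3 throughout). SUCLG2 and FH, and OGDH and IDH3A, did not differ beyond their spread there. In 3D, CS stood at 127.9 ± 7.50 CPM per kilobase, MDH2 at 79.9 ± 11.4, IDH3B at 71.6 ± 7.94, SUCLG1 at 39.8 ± 9.19, FH at 34.6 ± 3.20 and SUCLG2 at 25.5 ± 2.76. Below them came IDH3G (12.4 ± 2.41), OGDH (11.0 ± 1.77) and IDH3A (7.80 ± 0.37). The neighbours MDH2 and IDH3B, SUCLG1 and FH, and IDH3G and OGDH lay within each other's spread in 3D. IDH3A was next to last in 2D and last in 3D, but its place rests on the length taken for it.

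Of 9 other genes of the cycle and complex II, 1 rose and 0 fell (3 and 1 with length and GC content corrected). Their median log2 fold change was 0.09. Beside this count and those of the lists below, 19.0% of all genes tested were called higher and 17.6% lower. Whether any list differs from these shares was not tested. SDHA, the flavoprotein of complex II, rose from 108.2 ± 8.41 to 149.5 ± 10.9 CPM (1.38-fold, edgeR adjusted p = 0.0103), a call lost without 2D replicate 1 (adjusted p = 0.0671) or 2D replicate 2 (0.0586). Whether the 9 differ from these other cycle genes was not tested.

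Of 13 assembly, lipoylation and repair factors 3 rose and 1 fell. The count of rises was 0 without 2D replicate 1, 2D replicate 3 or 3D replicate 3, and 1 without 2D replicate 2. SDHAF3, an assembly factor of complex II, rose 1.40-fold. DHTKD1, which works on alpha-ketoadipate as OGDH does on alpha-ketoglutarate, fell from 28.1 ± 0.84 to 17.5 ± 3.96 CPM. The SDHAF3 call was lost without any single library other than 3D replicate 1 (edgeR adjusted p between 0.0722 and 0.183).

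At the entry of pyruvate, 5 of 12 genes rose (3 without 2D replicate 2) and 2 fell. The pyruvate dehydrogenase kinases, which switch the complex off, were among the rises: PDK1 stood at 36.8, 30.4 and 42.9 CPM in 2D and at 85.2, 111.4 and 69.9 CPM in 3D (2.42-fold, log2 1.28, SE 0.18, edgeR adjusted p = 0.000492), with no overlap. PDK3 rose 2.29-fold from a low level of 2.04 ± 0.36 CPM. The other rises were PDK2, PDHA1 and MPC2. With length and GC content corrected, PDK2 was not called (edgeR adjusted p = 0.0819). PDHA1, a subunit of the complex itself, rose from 39.4 ± 3.22 to 55.8 ± 3.10 CPM (edgeR adjusted p = 0.00806). MPC2, a subunit of the pyruvate carrier, rose from 31.9 ± 1.72 to 52.2 ± 9.14 CPM (edgeR adjusted p = 0.00336). The activity of the complex was not measured. The phosphatase PDP2, which switches the complex on, fell from 47.4 ± 4.03 to 28.6 ± 4.76 CPM. PDPR, a regulatory subunit that pairs with another phosphatase, PDP1, fell from 119.3 ± 6.98 to 90.8 ± 9.84 CPM (edgeR adjusted p = 0.0254). PDP1 itself was not called (log2 −0.51, edgeR adjusted p = 0.13). The PDPR call was lost in the fit corrected for length and GC content (adjusted p = 0.171) and without 2D replicate 1, 2 or 3 or 3D replicate 3 (between 0.0518 and 0.088).

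Of 6 genes tested from the list of cytosolic or NADP-linked counterparts, 4 rose and 0 fell. Their median log2 fold change was 0.65. The 6 include ME2, a mitochondrial and NAD-linked malic enzyme, which was not called (edgeR adjusted p = 0.493). IDH2 rose 2.82-fold (log2 1.50, SE 0.20, edgeR adjusted p = 0.000395). ACLY, which splits exported citrate for lipid synthesis, rose 1.87-fold from 141.8 ± 19.2 to 265.8 ± 46.2 CPM. The count ratio of CS to ACLY was 2.07, 1.99 and 1.65 in 2D and 1.56, 1.25 and 1.53 in 3D, a log2 difference of −0.39 (exact permutation p = 0.1, adjusted p = 0.18). MDH1, the cytosolic malate dehydrogenase, rose 1.73-fold, and its ratio to MDH2 did not separate the groups (log2 difference of MDH2 to MDH1 −0.11, exact permutation p = 0.7).

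Of 12 genes listed for reactions that feed or drain the cycle, 6 rose and 3 fell. The 6 include ACOT13, an acyl-CoA thioesterase that does not itself feed or drain the cycle. The count of rises was 3 without 2D replicate 1, 2D replicate 2 or 3D replicate 2. PCK1, which turns oxaloacetate into phosphoenolpyruvate in the cytosol, rose 4.25-fold from 15.0 ± 2.71 to 63.7 ± 2.91 CPM. GLS2, which releases glutamate from glutamine, rose 2.29-fold from 4.16 ± 0.77 CPM. The GLS2 call was lost without 2D replicate 2 and 3D replicate 1 together (edgeR adjusted p = 0.0678). GOT1, the cytosolic aspartate aminotransferase, fell to 47.0 ± 6.75 CPM from 115.7 ± 9.66 CPM in 2D (log2 −1.30, SE 0.14, edgeR adjusted p = 8.59e-05).

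Of 8 mitochondrial carriers of cycle intermediates 4 rose and 0 fell. Their median log2 fold change was 0.63. SLC25A10, the dicarboxylate carrier for malate and succinate, rose from 24.8, 23.5 and 33.7 CPM in 2D to 149, 110 and 120.1 CPM in 3D (4.62-fold, log2 2.21, SE 0.17, edgeR adjusted p = 2.00e-05). With length and GC content corrected its log2 difference was 1.80. SLC25A18, a glutamate carrier, rose from 0.36 ± 0.08 to 1.11 ± 0.31 CPM. The SLC25A18 call was lost with DESeq2 (adjusted p = 0.0517). With edgeR it was lost when 2D replicate 2 (0.0676), 2D replicate 3 (0.0816) or 3D replicate 2 (0.0509) was left out.

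Regulators and general mitochondrial genes went both ways, with 3 of 16 higher and 4 lower (2 lower without 2D replicate 2, 2D replicate 3 or 3D replicate 3) and a median log2 fold change of −0.25. VDAC1, the main channel of the outer membrane, rose 1.70-fold from 165.2 ± 4.44 to 280.8 ± 35.2 CPM, and SIRT3, the mitochondrial deacetylase, rose 1.66-fold. PPARGC1A, a coactivator of mitochondrial genes, stood at 86.7, 80.1 and 61.4 CPM in 2D and at 12.2, 16.9 and 16.2 CPM in 3D (log2 −2.32, SE 0.17, edgeR adjusted p = 1.89e-05). HSPA9, the chaperone that draws proteins into the matrix, fell from 654.9 ± 55.4 to 403.8 ± 48.6 CPM. Transcripts of the mitochondrial chromosome made up between 9.06% and 9.25% of counts in 2D and between 7.76% and 9.70% in 3D.

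**Figure D4:**
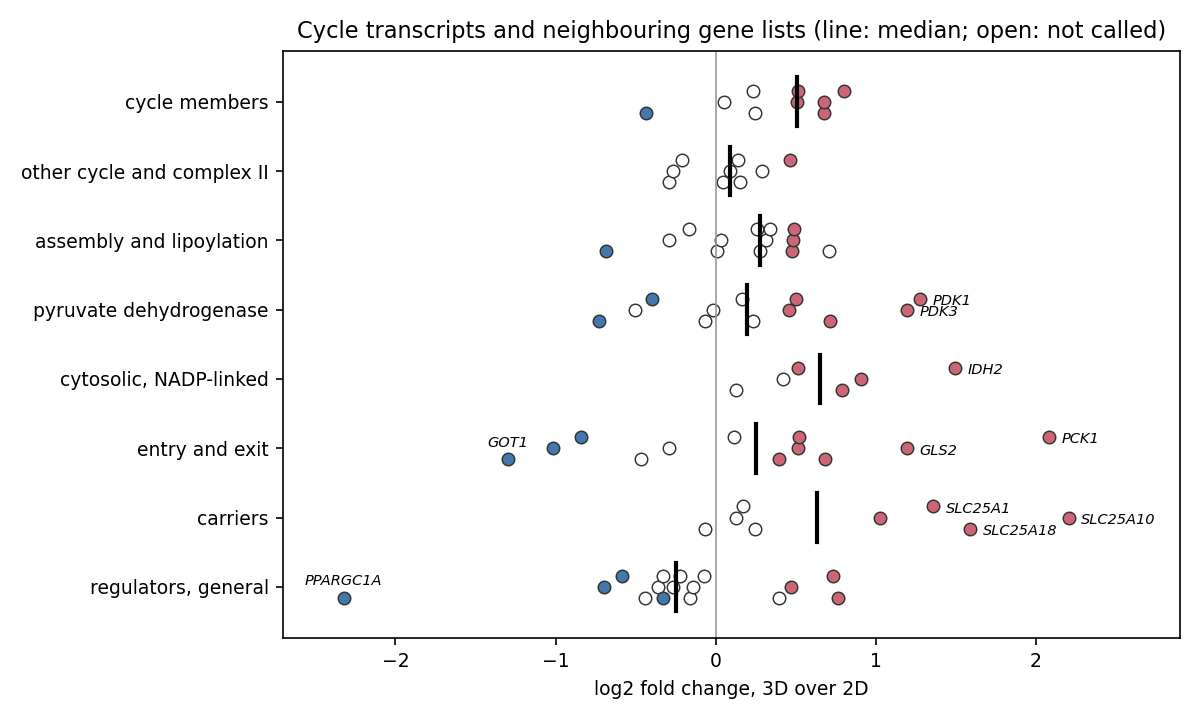
Log2 fold change of 3D over 2D (x axis) for each tested gene of the 9 cycle transcripts and of 7 neighbouring lists; red and blue points were called higher and lower at an edgeR adjusted p under 0.05, open points were not called, and the vertical line is the list's median. Called genes with the largest differences carry their names, from PPARGC1A at −2.32 to SLC25A10 at 2.21.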

How the data were processed

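Estimated counts for 6 HepG2 libraries were taken from the table the authors deposited. The submitters' processing notes name Partek, STAR 2.4.1d and hg38; for annotation, counting settings and strand handling nothing is given in the sources used here. Counts were rounded and tested in R 4.3.3 with edgeR 4.0.16: filterByExpr, TMM, a robust quasi-likelihood fit of culture, Benjamini-Hochberg adjustment over 15314 genes, calls at an adjusted p under 0.05, SE from the F statistic. Ratios of genes were tested by exact permutation. In simulated comparisons of 3 against 3 libraries, 15075 to 15106 genes were tested. The share of changed genes recovered was 19.9% at 1.5-fold, 70.1% at 2-fold and 98.0% at 4-fold, and 30 of 405 calls were false. Over all simulations only 201, 201 and 198 genes were changed at these folds, with the same fixed dispersion for every gene. In the data 36.6% of genes were called, so these shares need not hold for the data. Alternatives were DESeq2 1.42.0, limma-voom (limma 3.58.1), 2 scalings, 2 filters, a loess correction (span 0.5) for length and GC content of GENCODE 29 principal transcripts (99.4% of tested genes matched), the replicate block and left-out libraries. Libraries of a group differed beyond sampling noise (chi-square per degree of freedom 11.2 to 29.5).

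The 9 genes, the neighbouring lists and the markers were chosen with earlier results of these data known. Named were the 9, the genes of the ratios, from each list at most 2 called rises and 2 called falls, the largest at 1 CPM or more in the higher group, and the 5 most alike profiles. PDK2, PDHA1 and MPC2, the other rises at the entry of pyruvate, were added after their values were seen. So were PDP1, ACOT13 and ME2. ME1, ME3 and PDK4 were not analysed here. Some genes of the lists are not reported here by name.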

Additional observations from a re-analysis of the deposited data

How the results depend on the processing

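Over 17 alternatives between 4 and 5 of the cycle transcripts were called higher, and CS, FH, MDH2 and IDH3B were called in each. The 1 lower call, IDH3A, was 0 with length and GC content corrected and with the replicate block added to that correction, and between 0 and 1 when single libraries were left out. The median log2 fold change of the 9 was 0.30 with that correction, 0.301 with the block added, 0.225 with the median over basic transcripts (chosen after seeing the data), and 0.358 to 0.499 without single libraries. Without single libraries 1938 to 2817 genes were higher in all (2910 with all libraries), and 15 to 25 of the neighbouring genes (26 with all).

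OGDH, which was not called, had a log2 difference of −0.0199 with length and GC content corrected, −0.0175 with the replicate block as well, −0.0157 with the median over basic transcripts, and −0.0936 to 0.147 over all alternatives; it was −0.00607, −0.00512 and −0.0936 without 2D replicate 1, 2D replicate 3 and 3D replicate 1. DLST was at −0.0254, −0.0286 and −0.119 in the same 3 corrected fits and ran from −0.0344 to 0.0795 without single libraries. Ratios close to 0 also turned: without single libraries SUCLG1 to SUCLG2 ran from −0.144 to 0.11, MDH2 to MDH1 from −0.343 to 0.0283 and OGDH to DLST from −0.153 to 0.126, and without 2D replicate 2 and 3D replicate 1 together SUCLG1 to SUCLG2 was 0.0858 and OGDH to DLST −0.0366. As differences of fold changes in the corrected fit (chosen after seeing the data), IDH3A to IDH3B was −0.691, IDH3A to IDH3G −0.398 and IDH3A to IDH2 −1.60, and with the median over basic transcripts SUCLG2 to SUCLA2 was 0.407. The cause was not tested.

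No sign was seen that the replicate numbers of the titles pair the libraries. Deviations of same-numbered libraries correlated at 0.053, −0.00924 and −0.0783, and those of differently numbered libraries at −0.0812 to 0.103. Such values cannot show whether same-numbered libraries were handled together. With the replicate block 4 transcripts were called higher and 1 lower, the median was 0.493, and IDH3G was not called (edgeR adjusted p = 0.0509). SUCLA2 was called only without 3D replicate 2 (log2 −0.45, adjusted p = 0.041). A scaling other than TMM moved the median over all genes by less than 0.1 on the log2 scale.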

Other observations

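A gene chosen after its values were seen, RP11-977G19.10, overlaps CS on the same strand by 220 exonic bases. It had 115.6 estimated counts in 3D replicate 1 and at most 12.6 in the other 5 libraries, beside 3891 rounded counts of CS in 3D replicate 1.

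Glutamate and malate handling held further called genes beyond those named above. GLUD1, which turns glutamate into alpha-ketoglutarate, rose from 428.4 ± 82.8 to 687.7 ± 137.7 CPM (log2 0.68, edgeR adjusted p = 0.0128). GOT2, the mitochondrial aspartate aminotransferase, rose from 110.5 ± 3.81 to 157.7 ± 1.48 CPM, while the cytosolic GOT1 fell (log2 −1.30). PCK2, the mitochondrial counterpart of PCK1, fell from 359.4 ± 21.4 to 200.4 ± 16.4 CPM. SLC25A1, the citrate carrier, rose from 69.6 ± 12.9 to 178.9 ± 2.72 CPM, and SLC25A11, the carrier that exchanges alpha-ketoglutarate for malate, from 21.4 ± 1.64 to 43.6 ± 6.86 CPM. These genes belong to the listed groups and were chosen here after their values were seen.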
